A study of Mus musculus with 16 samples.

Results

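Dusp6, Dusp4, Dusp1, Spred1 and Spred2 encode inhibitors of the ERK pathway, and their transcripts were followed in macrophages washed from the peritoneal cavity of mice. The 5 genes were taken from a table of 15871 entries, and all 5 were among the 13527 entries with enough reads to be tested. They were chosen by measured values: Dusp6 for its rise with oxidised low-density lipoprotein (ox-LDL) at both glucose levels, Dusp4 and Spred2 for theirs in high glucose, and Dusp1 and Spred1 as members of the same families. The values of the 5 genes in the ox-LDL comparisons are therefore given as a description, with no test.

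Wild-type C57BL/6 mice aged 8 weeks received 6% soluble starch into the peritoneal cavity, which draws macrophages there, and the cells were cultured in DMEM with serum. H_O cells received 33 mmol/L glucose and ox-LDL for 48 h, L_O cells ox-LDL alone in low glucose, H_C cells 33 mmol/L glucose alone, and L_C cells 27.5 mM mannitol as an osmotic control. Each group had 4 libraries of total RNA. The labels give the ox-LDL dose as 50 mg/ml, a unit that is in doubt, and do not state the low glucose level. They name no mannitol for L_O, so that in L_O against L_C the lipoprotein and the lack of mannitol cannot be told apart. In H_O over L_O glucose and osmolarity cannot be told apart either. The differences between the ox-LDL responses in high and low glucose carry both limits. The series aims at targets for atherosclerosis under high glucose, where macrophages that take up ox-LDL become foam cells. Nothing in the labels ties the replicates to different animals or dishes, and the p-values below then describe the scatter of these libraries alone, which may be technical.

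Growth factor and cytokine receptors switch on the small GTPase Ras, which activates the kinases Raf, MEK and ERK in turn, and ERK enters the nucleus to drive early response genes. Among the genes that ERK induces are its own inhibitors, a negative feedback. Dual-specificity phosphatases (DUSPs) remove the activating phosphates from ERK itself, whereas Spred proteins act upstream, at the membrane, by holding back Ras and Raf. In macrophages ERK signalling follows colony-stimulating factors as well as bacterial products and scavenger receptor ligands. Transcript levels do not measure the activity of ERK.

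The 250 bases before the transcription start were read for the members that RefSeq's promoter table holds, 4 of the 5 (GRCm38.p6), since genes that move together can be set side by side at this level. Dusp4 was not among them. Capitals mark the matches to 4 motifs that ERK-regulated promoters are known to use, searched on both strands: the ETS core CGGAAG, the cyclic AMP response element TGACGTCA, the AP-1 site TGANTCA and the CArG box of serum response factor. Each stretch is written 5′ to 3′ along the gene's own strand.
Dusp6, chr10:99262981-99263230, plus strand: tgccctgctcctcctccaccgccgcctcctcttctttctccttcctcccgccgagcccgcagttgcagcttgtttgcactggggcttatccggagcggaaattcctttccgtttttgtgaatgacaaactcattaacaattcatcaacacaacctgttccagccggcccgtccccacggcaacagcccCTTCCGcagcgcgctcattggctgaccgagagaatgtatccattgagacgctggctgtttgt
Spred1, chr2:117120821-117121070, plus strand: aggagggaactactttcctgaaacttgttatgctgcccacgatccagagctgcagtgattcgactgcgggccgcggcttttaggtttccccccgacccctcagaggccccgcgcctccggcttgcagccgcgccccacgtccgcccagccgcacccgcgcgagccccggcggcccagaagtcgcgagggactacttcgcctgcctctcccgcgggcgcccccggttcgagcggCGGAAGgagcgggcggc
Spred2, chr11:19924192-19924441, plus strand: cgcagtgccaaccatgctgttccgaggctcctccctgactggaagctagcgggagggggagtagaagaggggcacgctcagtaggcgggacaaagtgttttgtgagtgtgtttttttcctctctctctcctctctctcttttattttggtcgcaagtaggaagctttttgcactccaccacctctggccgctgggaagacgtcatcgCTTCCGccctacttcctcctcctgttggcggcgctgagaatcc
Dusp1, chr17:26508473-26508722, minus strand: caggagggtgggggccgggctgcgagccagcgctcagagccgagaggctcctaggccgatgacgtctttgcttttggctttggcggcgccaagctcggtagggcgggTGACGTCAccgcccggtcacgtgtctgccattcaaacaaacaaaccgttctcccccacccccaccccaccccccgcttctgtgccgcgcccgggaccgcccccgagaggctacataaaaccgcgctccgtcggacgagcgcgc
Dusp6, Spred1 and Spred2 each held 1 ETS core, at 62 to 57, 17 to 12 and 43 to 38 bases before the start, on the minus strand of the gene in Dusp6 and Spred2 and written there as CTTCCG. The ETS core occurred in 13.6% of all 32851 RefSeq promoter stretches of that length. It occurred in 23.6% of the 12716 with at least 56% G and C. That cut equals the lowest share among these 4, that of Spred2, so the class was drawn to hold them. Dusp1 held no ETS core and 1 full cyclic AMP response element, at 143 to 136 bases before the start, a motif found in 1.55% of all stretches and 2.62% of the G and C rich ones. No AP-1 site, present in 6.75% of all stretches, and no CArG box, present in 1.47%, was found in any of the 4 windows. Spred3, a relative outside the 5 that was called higher with ox-LDL (below), was read in the same way. Its stretch held none of the 4 motifs, the ETS core included, at 55.6% G and C. That stretch (chr7:29168648-29168897) lies inside the annotated Spred3 locus (29158829 to 29170411). Positions are counted from the RefSeq start. The GENCODE locus given later starts further downstream for Spred1 and further upstream for Spred2 and Dusp1, so that the Spred2 and Dusp1 stretches reach into those longer loci. These matches describe letters and not binding.

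Library totals lay between 32596640 and 41712885 counted reads, and the groups overlapped in depth. L_C replicate 4 stood apart, with 3.72% of its counts in mitochondrial genes, where the L_C group otherwise had 1.48% to 1.95%, and it was in the most unlike pairs of replicates. H_C replicate 3 had the highest summed level of 8 mesothelial and fibroblast markers, 197 CPM (the usual library-scaled read count, here with TMM factors), against 36.1 to 39.6 CPM in the other H_C libraries. All 8 macrophage markers were detected in every group, with summed levels of 19300 to 20800 CPM in H_O, 18200 to 18900 in L_O, 18400 to 18900 in H_C and 17400 to 20200 in L_C. These sums were mostly Lyz2, with group means of 14100 to 15900 CPM. Single markers moved either way with ox-LDL in high glucose: Csf1r averaged 636 CPM in H_O and 877 in H_C, and Itgam 833 and 505. Among markers of other cells, 6 of 8 for T and NK cells summed to 3.27 to 4.8 CPM in H_O, 3.16 to 4.9 in L_O, 5.06 to 7.32 in H_C and 5.88 to 9.6 in L_C. In any library the sums reached at most 2.13 CPM for 4 of 5 B cell markers, 5.23 CPM for 3 of 5 neutrophil markers (with Retnlg at 0 in H_O) and 0.493 CPM for 2 of 6 mast cell and basophil markers. Of 4 eosinophil markers Siglecf alone was in the table, at 4.7 to 5.72 CPM in H_O, 3.69 to 4.98 in L_O, 19.5 to 23.6 in H_C and 14.2 to 20.6 in L_C. The 6 of 7 dendritic cell markers measured were mostly Itgax, which macrophages also express, and summed to 257 to 321 CPM in H_O, 374 to 401 in L_O, 592 to 613 in H_C and 717 to 800 in L_C. The T and NK cell, eosinophil and dendritic cell sums were thus lower with ox-LDL, and their part in the ox-LDL results was not tested. In bulk libraries fewer cells of a type and less RNA per cell cannot be told apart.

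Dusp6, the cytoplasmic phosphatase that acts on ERK with high selectivity, had the largest ox-LDL fold changes of the 5 genes. Its transcript (chromosome 10, 99263231 to 99267489, plus strand, GRCm38) measured 43.3, 43.1, 40.9 and 44.0 CPM in H_O and 42.9, 41.4, 42.8 and 41.1 CPM in L_O. It measured 5.09, 5.55, 9.45 and 5.66 CPM in H_C and 9.55, 8.76, 10.9 and 7.23 CPM in L_C. All ox-LDL libraries lay far above all libraries without it, the 8 ox-LDL values spanned a narrow band, and the spread sat among the controls, where H_C replicate 3 reached the L_C range. The log2 fold change was 2.73 ± 0.15 (SE) for H_O over H_C, a 6.62-fold higher level, and 2.21 ± 0.15 for L_O over L_C, a 4.62-fold higher level. Counted from the largest rise of the 13527 entries, Dusp6 took rank 27 in high glucose and rank 38 in low glucose. Without H_C replicate 3 the high glucose log2 value was 2.96, and without L_C replicate 4 the low glucose value was 2.11.

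Dusp4, a nuclear phosphatase of the same family that acts on ERK and JNK, showed the next largest contrasts among the phosphatases. Its CPM (chromosome 8, 34807297 to 34819894) were 22.8, 24.8, 24.8 and 23.8 in H_O, against 6.71, 6.28, 7.01 and 7.11 in H_C. The corresponding values were 21.1, 22.0, 22.6 and 17 CPM in L_O, against 9.37, 6.85, 11.9 and 6.36 CPM in L_C. The groups did not overlap at either glucose level, and the L_C libraries scattered most in proportion to their mean. The level was 3.54-fold higher with ox-LDL in high glucose (log2 fold change 1.82 ± 0.15) and 2.40-fold higher in low glucose (1.26 ± 0.15).

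Dusp1, the nuclear phosphatase that prefers p38 and JNK and restrains inflammatory transcripts in macrophages, did not share this pattern. It stood at 20.6, 20.4, 17.5 and 20.0 CPM in H_O, against 14.2, 18.3, 18.8 and 16.2 CPM in H_C. In low glucose it stood at 18.7, 17, 18.4 and 17.7 CPM in L_O, against 14.9, 17.2, 20.9 and 21.7 CPM in L_C. The ranges overlapped in both comparisons, with log2 fold changes of 0.22 ± 0.11 in high glucose and -0.06 ± 0.11 in low glucose. The low glucose value was 0.02 without L_C replicate 4 and 0.03 with no scaling beyond library totals, of the opposite sign. The annotated Dusp1 locus on chromosome 17 (26505590 to 26562128, minus strand) overlaps Ergic1 on the other strand in its long isoform, and as the strand setting of the counting is not given, reads of the shared stretch cannot be told apart.

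Spred1, which brings the Ras-inactivating protein neurofibromin to the membrane, had the highest level per exonic length of the 5 in every group. It measured 108, 106, 103 and 100 CPM in H_O, against 58.1, 62.5, 64.9 and 62.2 CPM in H_C. It measured 103, 105, 103 and 110 CPM in L_O, against 60.9, 61.4, 72.1 and 56.7 CPM in L_C. Every ox-LDL library lay above every control library, by a similar amount at both glucose levels: the log2 fold change was 0.75 ± 0.061 in high glucose, a 1.69-fold higher level, and 0.75 ± 0.061 in low glucose, a 1.68-fold higher level. Spred1 lies on chromosome 2 (117121374 to 117182279).

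Spred2, a close relative that also restrains Ras-dependent activation of Raf, had contrasts of the size seen for Dusp4. Its values (chromosome 11, 19924375 to 20024026) were 32.3, 31.7, 33.0 and 31.9 CPM in H_O, against 7.75, 8.03, 9.98 and 10.4 CPM in H_C. They were 30.9, 28.9, 30.4 and 34.2 CPM in L_O, against 10.9, 10.9, 12.4 and 15.5 CPM in L_C. No control library reached any ox-LDL library, and the H_C values lay below all L_C values. The level was 3.56-fold higher with ox-LDL in high glucose (log2 fold change 1.83 ± 0.11) and 2.50-fold higher in low glucose (1.32 ± 0.11). Of the 50-base stretches of its exons, 1.34% also occur in another annotated gene, and none do for the other 4 members. Transcripts were compared in their own direction only, so sequence shared with an opposite strand was not searched.

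**Figure D1:**
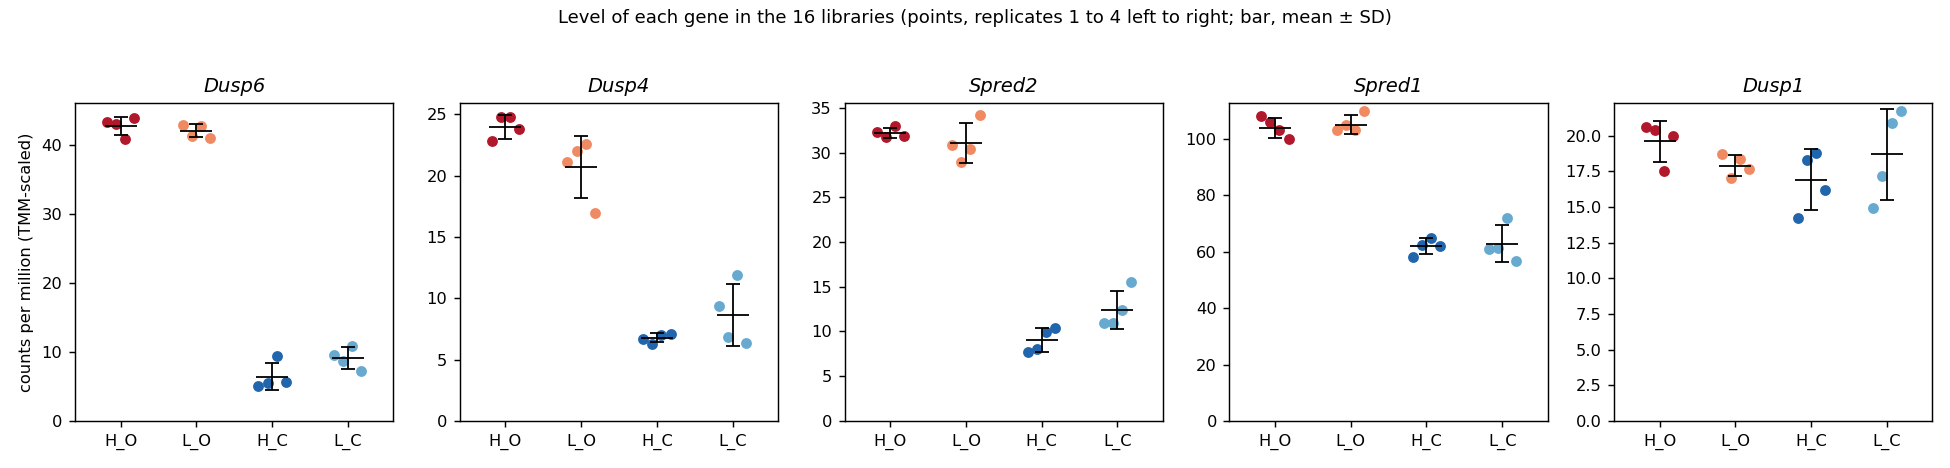
Levels (CPM, vertical axes) of the 5 genes in each of the 16 libraries, 1 panel a gene, with groups H_O, L_O, H_C and L_C along the horizontal axis; points are libraries and bars the group mean with its SD. Dusp6 sits near 42 CPM in both ox-LDL groups, whereas Dusp1 stays between 14.2 and 21.7 CPM in every library.

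Levels of different genes can be compared only per length, and the mean CPM was divided by the exonic length of each gene in kilobases for that purpose. That length joins the exons of all annotated isoforms. For Dusp1 it is 3311 bases and includes exons of the long isoform beyond the RefSeq locus (26505591 to 26508472). With a shorter length the Dusp1 values would be higher, so its place in the orders below depends on this choice. In H_O, Spred1 came first at 15.3 ± 0.523 CPM per kilobase (SD, n = 4), then Dusp6 at 13.7 ± 0.421, Dusp4 at 8.76 ± 0.356, Spred2 at 6.97 ± 0.124 and Dusp1 at 5.92 ± 0.438. In L_O the same order held, with 15.5 ± 0.500 for Spred1, 13.4 ± 0.295 for Dusp6, 7.55 ± 0.923 for Dusp4, 6.73 ± 0.485 for Spred2 and 5.41 ± 0.228 for Dusp1, where the Dusp4 and Spred2 means lie within the Dusp4 spread. In H_C, Spred1 led at 9.12 ± 0.416 and Dusp1 was second at 5.10 ± 0.646, above Dusp4 at 2.47 ± 0.136, Dusp6 at 2.06 ± 0.645 and Spred2 at 1.96 ± 0.292. In L_C the values were 9.26 ± 0.967 for Spred1, 5.65 ± 0.966 for Dusp1, 3.15 ± 0.931 for Dusp4, 2.91 ± 0.492 for Dusp6 and 2.68 ± 0.465 for Spred2, the last 3 within their spread. Dusp6 thus moved between the low end without ox-LDL and a place next to Spred1 with it.

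Of all 13527 tested entries, 10.4% were called higher in H_O over H_C and 12.0% in L_O over L_C, while 11.5% and 13.8% were called lower (edgeR quasi-likelihood test, Benjamini-Hochberg adjusted p under 0.05). The 5 genes were picked on these contrasts, so their own calls are not given. The ox-LDL log2 fold change was larger in high than in low glucose by 0.52 ± 0.20 (SE) for Dusp6, 0.56 ± 0.21 for Dusp4, 0.51 ± 0.16 for Spred2 and 0.28 ± 0.16 for Dusp1, and by 0.01 ± 0.086 for Spred1. These differences contain the contrasts that chose the genes and carry no test here. For Dusp6 the difference was 0.76 without H_C replicate 3 and 0.87 without both that library and L_C replicate 4. Across all entries 1 was called higher and 1 lower for such a difference, 0.00739% in each direction. At an unadjusted edgeR p under 0.05 there were 1161 entries, and DESeq2 gave 95 calls and limma-voom 0.

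**Figure D2:**
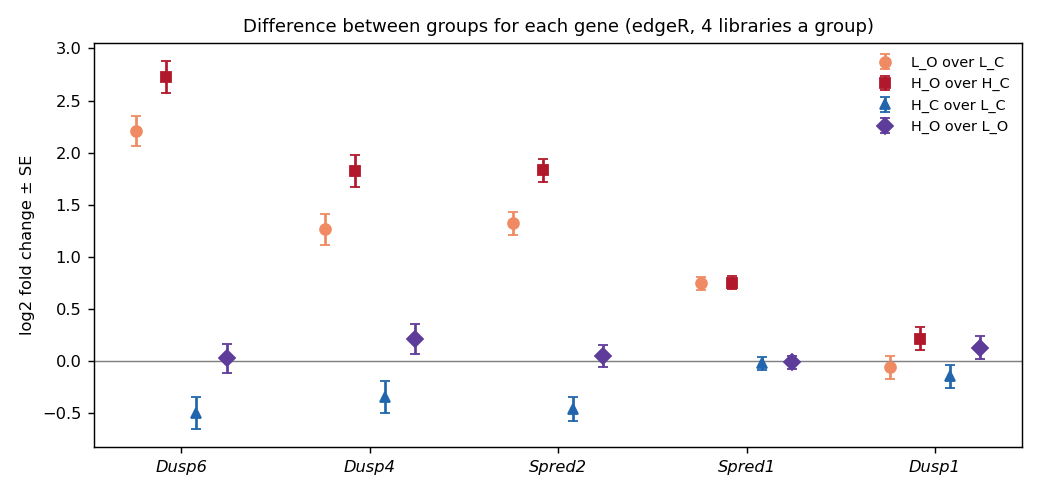
Log2 fold changes with their standard errors (vertical axis) for the 5 genes (horizontal axis) in the ox-LDL comparisons and the glucose comparisons. The ox-LDL values of Dusp6 are 2.73 and 2.21, while its glucose values are -0.49 without and 0.03 with ox-LDL.

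Relatives outside the chosen 5 were tested in the same fit. Of the other 7 classical MAP kinase phosphatases, all tested, 0 were called higher with ox-LDL at either glucose level, where the shares of all entries were 10.4% in high and 12.0% in low glucose, and 0 of 7 is too small a count to set the family apart from them. Dusp2, a nuclear ERK phosphatase of activated immune cells, fell in high glucose by 0.80 ± 0.20 on the log2 scale (edgeR adjusted p = 0.00764). Its CPM were 5.79, 5.47, 4.85 and 5.46 in H_O, against 10.8, 7.48, 8.04 and 11.3 in H_C, with no overlap. In low glucose the Dusp2 log2 fold change was -0.50 ± 0.20 (edgeR adjusted p = 0.0768) and the ranges overlapped.

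Dusp7, the closest relative of Dusp6 with the same substrate and place in the cell, measured 57.0 ± 4.90 CPM in H_O, 64.1 ± 3.05 in L_O, 48.4 ± 2.94 in H_C and 58.0 ± 12.7 in L_C (SD, n = 4 each). Its ox-LDL log2 fold changes, 0.24 ± 0.11 in high and 0.14 ± 0.11 in low glucose, did not pass the test (edgeR adjusted p = 0.141 and 0.365). Dusp9, the remaining cytoplasmic ERK phosphatase, stayed at or under 2.34 CPM in every library. The nuclear Dusp5 spanned 0.549 to 2.71 CPM over all libraries, with overlap in each comparison. Dusp8, Dusp10 and Dusp16, which act on JNK and p38, had log2 fold changes of -0.02 ± 0.29, -0.44 ± 0.20 and -0.09 ± 0.11 in high glucose and of -0.46 ± 0.29, -0.47 ± 0.20 and -0.20 ± 0.11 in low glucose, none past the threshold. The median over the 7 genes was -0.09 in high glucose and -0.37 in low glucose, against 0.01 and 0.00 for all tested entries.

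Atypical DUSPs, which lack the MAP kinase binding domain, numbered 8 tested, of which 0 were higher and 2 lower at each glucose level, with medians of -0.15 in high and 0.08 in low glucose. Of all entries 10.4% were higher and 11.5% lower in high glucose and 12.0% and 13.8% in low glucose, and the 8 genes are too few to be set apart from these shares. The 2 were Dusp3, which fell by 0.22 ± 0.044 on the log2 scale in high and by 0.14 ± 0.044 in low glucose (edgeR adjusted p = 0.000996 and 0.0255), and Dusp28, which fell by 0.35 ± 0.12 and 0.41 ± 0.12 (edgeR adjusted p = 0.0367 and 0.014). The Dusp3 call in low glucose was lost in 9 of 26 alternatives: with no scaling beyond library totals (edgeR adjusted p = 0.425), with upper-quartile scaling (0.0597), in the fit of the 8 libraries alone (0.0930) and without any 1 of replicates 1, 2 and 3 of L_O or L_C (0.0543 to 0.0824). The Dusp28 call in high glucose was lost in 7 of 26: with no scaling (edgeR adjusted p = 0.0865), in the fit of the 8 libraries alone (0.0588) and without replicate 1, 2 or 4 of H_O or replicate 1 or 2 of H_C (at most 0.153).

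Among the other Sprouty and Spred genes, 1 of 4 rose at each glucose level, against 10.4% of all entries in high and 12.0% in low glucose, and it was Spred3, the third mouse Spred gene. It measured 1.37, 1.68, 1.85 and 1.43 CPM in H_O, against 0.762, 0.584, 0.896 and 0.754 CPM in H_C. In low glucose it measured 2.15, 1.70, 1.59 and 1.31 CPM in L_O, against 0.919, 0.967, 0.769 and 1.11 CPM in L_C. All ox-LDL libraries lay above all control libraries in both comparisons, at a level far below Spred1 and Spred2. The log2 fold change was 1.07 ± 0.26 in high glucose (edgeR adjusted p = 0.00488) and 0.84 ± 0.25 in low glucose (edgeR adjusted p = 0.0199). The low glucose call was lost without L_O replicate 1 (edgeR adjusted p = 0.0762) or without L_C replicate 3 (0.0550). Spred3 overlaps Ggn on the opposite strand of chromosome 7, and reads of both cannot be told apart without the strand setting.

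The Sprouty genes, whose products also block receptor signals to Ras, showed no call. Spry2 had 8.27 ± 0.792 CPM in H_O, 6.34 ± 0.796 in L_O, 8.22 ± 0.118 in H_C and 7.15 ± 1.39 in L_C (SD, n = 4 each), with ox-LDL log2 fold changes of 0.01 ± 0.13 and -0.17 ± 0.14 in high and low glucose. Spry1 stayed at or under 0.517 CPM in all libraries and Spry4 at or under 0.973 CPM, too few reads for a firm statement. The highest Spry4 value was in H_C replicate 3, the library with the most mesothelial and fibroblast markers, as were the highest H_C values of Spry1 (0.486 CPM) and Dusp5 (2.46 CPM). The median of the 4 genes was 0.53 in high glucose and 0.37 in low glucose.

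**Figure D3:**
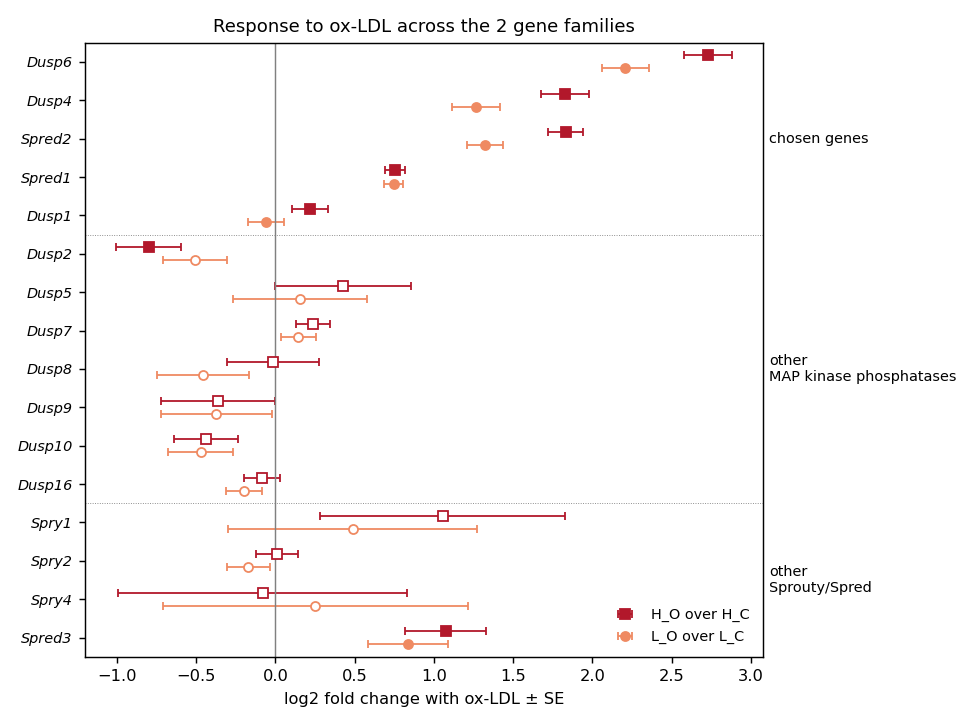
Ox-LDL log2 fold changes with standard errors (horizontal axis) for the 5 chosen genes, the other 7 classical MAP kinase phosphatases and the other 4 Sprouty and Spred genes; squares are H_O over H_C, circles L_O over L_C. Filled symbols among the other genes passed the test and open ones did not (the chosen genes are filled with no test): Dusp2 at -0.80 in high glucose and Spred3 at 1.07 and 0.84.

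High glucose without ox-LDL went with lower Dusp6 and Spred2. These tests share their libraries with the comparisons that chose the genes, so a low H_C group favours both, and they are not independent of the choice. Spred2 averaged 9.04 ± 1.35 CPM in H_C and 12.4 ± 2.15 CPM in L_C (SD, n = 4 each), with every H_C library below every L_C library, and fell by 0.46 ± 0.11 on the log2 scale (edgeR adjusted p = 0.0121). Dusp6 averaged 6.44 ± 2.02 CPM in H_C and 9.12 ± 1.54 CPM in L_C and fell by 0.49 ± 0.15 (edgeR adjusted p = 0.0412), with overlap at H_C replicate 3. Dusp4 averaged 6.78 ± 0.374 CPM in H_C and 8.62 ± 2.55 CPM in L_C, a log2 fold change of -0.34 ± 0.15 (edgeR adjusted p = 0.158). Dusp1 and Spred1 had log2 fold changes of -0.15 ± 0.11 and -0.02 ± 0.062 (edgeR adjusted p = 0.445 and 0.881), and that of Spred1 turns positive, to 0.002, with upper-quartile scaling. Of all entries 7.75% were lower and 5.02% higher, and nothing is read from the count among the 5 genes, since the H_C libraries entered their choice. The other 7 classical MAP kinase phosphatases had 0 calls in H_C over L_C. Their log2 fold changes lay between -0.75 and -0.05, with a median of -0.26, against -0.0045 for all entries. The other 4 Sprouty and Spred genes, also with 0 calls, lay between -0.33 and 0.77, with a median of 0.09.

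The Dusp6 call lay close to the threshold. Leaving out 1 library at a time moved its log2 value between -0.73 (without H_C replicate 3, edgeR adjusted p = 0.000407) and -0.39 (without L_C replicate 3, edgeR adjusted p = 0.123), and 14 of the 16 omissions ended the call, all but those of H_C replicate 3 and L_C replicate 4. The 8 omissions of an ox-LDL library left it at -0.49, with edgeR adjusted p of 0.051 to 0.0530. With both L_C replicate 4 and H_C replicate 3 left out it was -0.84 (edgeR adjusted p = 2.74e-06). Dusp4 passed the threshold without L_C replicate 4 (-0.47, edgeR adjusted p = 0.0273) and without both libraries (-0.48, 0.0424), and Spred2 kept its call in all 16 omissions. In the fit of the 8 libraries alone the Spred2 call was lost (-0.45, edgeR adjusted p = 0.099). The Dusp6 call was lost there too (edgeR adjusted p = 0.194), and with upper-quartile scaling (0.0528), no scaling beyond library totals (0.0666) and limma-voom (0.0543).

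Mesothelial and fibroblast markers differed between libraries and groups. The summed level of the 8 markers was 73.6, 99.3, 32.7 and 72.3 CPM in H_O, 21.5, 35.2, 32.8 and 34.0 in L_O, 37.3, 36.1, 197 and 39.6 in H_C and 67.3, 62.2, 54.2 and 76.5 in L_C. H_C replicate 3 had both the highest marker sum of all libraries and the highest Dusp6 level of its group, whereas in L_C the library with the highest sum, replicate 4, had the lowest Dusp6. All L_O sums lay below all L_C sums, while H_O and H_C overlapped. The ox-LDL libraries held 40.9 to 44.0 CPM of Dusp6 at sums of 21.5 to 99.3 CPM, and the control libraries at most 10.9 CPM of Dusp6 at sums of 36.1 to 197 CPM. The part of these cells in the Dusp6 difference between H_C and L_C was not tested.

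**Figure D4:**
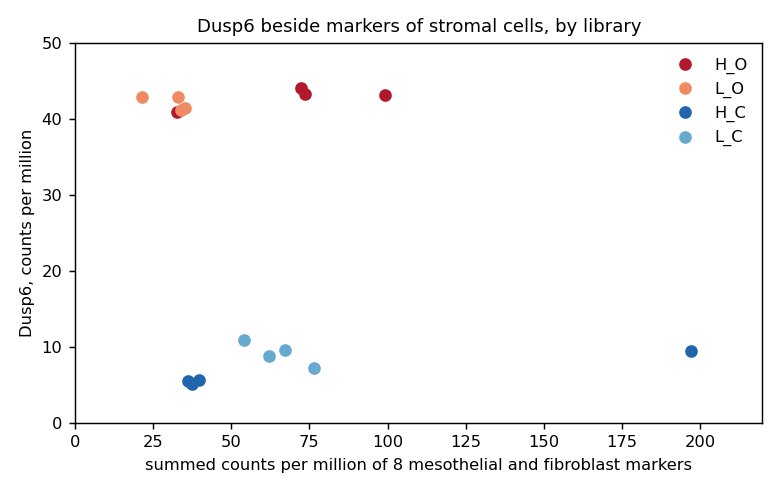
Dusp6 (CPM, vertical axis) against the summed CPM of 8 mesothelial and fibroblast markers (horizontal axis), 1 point a library, coloured by group. H_C replicate 3 lies alone at 197 CPM of markers and 9.45 CPM of Dusp6, and the ox-LDL libraries form a band at 40.9 to 44.0 CPM of Dusp6.

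With ox-LDL present, none of the 5 genes passed the test of H_O over L_O, where no osmotic control is named. Dusp6 averaged 42.8 ± 1.32 CPM in H_O and 42.1 ± 0.924 CPM in L_O, a log2 fold change of 0.03 ± 0.14 (edgeR adjusted p = 0.95). Dusp4 averaged 24.0 ± 0.976 CPM in H_O and 20.7 ± 2.53 CPM in L_O, with each H_O library above each L_O library, and its log2 fold change of 0.22 ± 0.14 did not pass the test (edgeR adjusted p = 0.448). Spred2 averaged 32.2 ± 0.572 CPM in H_O and 31.1 ± 2.24 CPM in L_O (log2 fold change 0.05 ± 0.11). Spred1 averaged 104 ± 3.55 CPM in H_O and 105 ± 3.39 CPM in L_O (-0.01 ± 0.061), and Dusp1 averaged 19.6 ± 1.45 CPM in H_O and 17.9 ± 0.755 CPM in L_O (0.13 ± 0.11). The Spred1 value turns positive, to 0.003, with no scaling beyond library totals. Of all entries 2.71% were higher and 3.39% lower. For Dusp6 and Spred2 the H_O and L_O means thus lay within the SD of L_O, while their H_C means were lower than their L_C means.

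Genes that ERK is known to induce did not move as 1 group. Of 28 tested, 8 rose and 10 fell with ox-LDL in high glucose and 7 rose and 8 fell in low glucose, with medians of 0.30 and -0.24. Of all entries 10.4% rose and 11.5% fell in high glucose, and 12.0% rose and 13.8% fell in low glucose. Fos, the immediate early AP-1 subunit, measured 27.9, 23.8, 31.7 and 28.9 CPM in H_O, against 10.7, 10.8, 11.6 and 9.02 CPM in H_C. It rose by 1.41 ± 0.12 on the log2 scale in high glucose and by 1.28 ± 0.12 in low glucose (edgeR adjusted p = 7.31e-08 and 2.4e-07). Etv5, an ETS factor of the PEA3 group that follows ERK activity in many tissues, was, like Dusp6, lowest in H_C: its CPM were 17.5, 12.4, 18.6 and 17.9 in H_O, 19.9, 20.9, 21.3 and 24.0 in L_O, 4.88, 4.99, 6.40 and 4.35 in H_C and 8.94, 8.68, 13.0 and 10.1 in L_C. All ox-LDL libraries lay above the controls at the same glucose level, and all H_C libraries below all L_C libraries.

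Etv5 rose by 1.68 ± 0.15 in high glucose and by 1.08 ± 0.15 in low glucose (edgeR adjusted p = 1.5e-07 and 1.85e-05), and fell by 0.98 ± 0.15 in H_C over L_C (edgeR adjusted p = 0.000351). The difference between its ox-LDL responses, 0.60 ± 0.21, did not pass the test (edgeR adjusted p = 0.382). Myc, a growth regulator, rose by 1.17 ± 0.17 in high and 0.78 ± 0.17 in low glucose (edgeR adjusted p = 5.72e-05 and 0.00182) and fell by 0.83 ± 0.17 in H_C over L_C (edgeR adjusted p = 0.00365). Emp1, a membrane protein, rose by 0.71 ± 0.057 and 0.89 ± 0.057 (edgeR adjusted p = 3.58e-08 and 1.85e-09).

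The EGR factors, immediate early genes that depend on serum response factor, moved the other way. Egr1 measured 2.48, 2.60, 2.43 and 2.56 CPM in H_O, 2.99, 3.49, 2.52 and 2.75 in L_O, 5.92, 4.23, 6.94 and 4.27 in H_C and 8.15, 7.71, 7.04 and 14.2 in L_C. It fell by 1.08 ± 0.22 on the log2 scale in high glucose and by 1.66 ± 0.21 in low glucose (edgeR adjusted p = 0.00105 and 1.09e-05). Egr2 fell by 0.75 ± 0.074 and 0.65 ± 0.073 (edgeR adjusted p = 4.14e-07 and 2.29e-06). Both also fell in H_C over L_C, by 0.80 ± 0.21 for Egr1 (edgeR adjusted p = 0.0159) and 0.27 ± 0.073 for Egr2 (edgeR adjusted p = 0.0217). The Egr2 call in H_C over L_C was lost without H_C replicate 3 (edgeR adjusted p = 0.0866) and without both it and L_C replicate 4 (0.0997), and that of Egr1 without H_C replicate 2 or 4 (edgeR adjusted p = 0.0560 and 0.0584) and in the fit of the 8 libraries alone (0.0836). L_C replicate 4 held the highest Egr1 level, 14.2 CPM, and without it the log2 fold change of Egr1 in H_C over L_C was -0.51. In the glucose comparisons, where 5.02% of all entries were higher and 7.75% lower in H_C over L_C and 2.71% and 3.39% in H_O over L_O, 2 of the 28 rose and 6 fell in H_C over L_C, with Btg2 at 0.64 ± 0.097 and Plaur at -0.40 ± 0.049, and 2 rose and 4 fell in H_O over L_O, with Epha2, an ephrin receptor, at 2.08 ± 0.37.

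**Figure D5:**
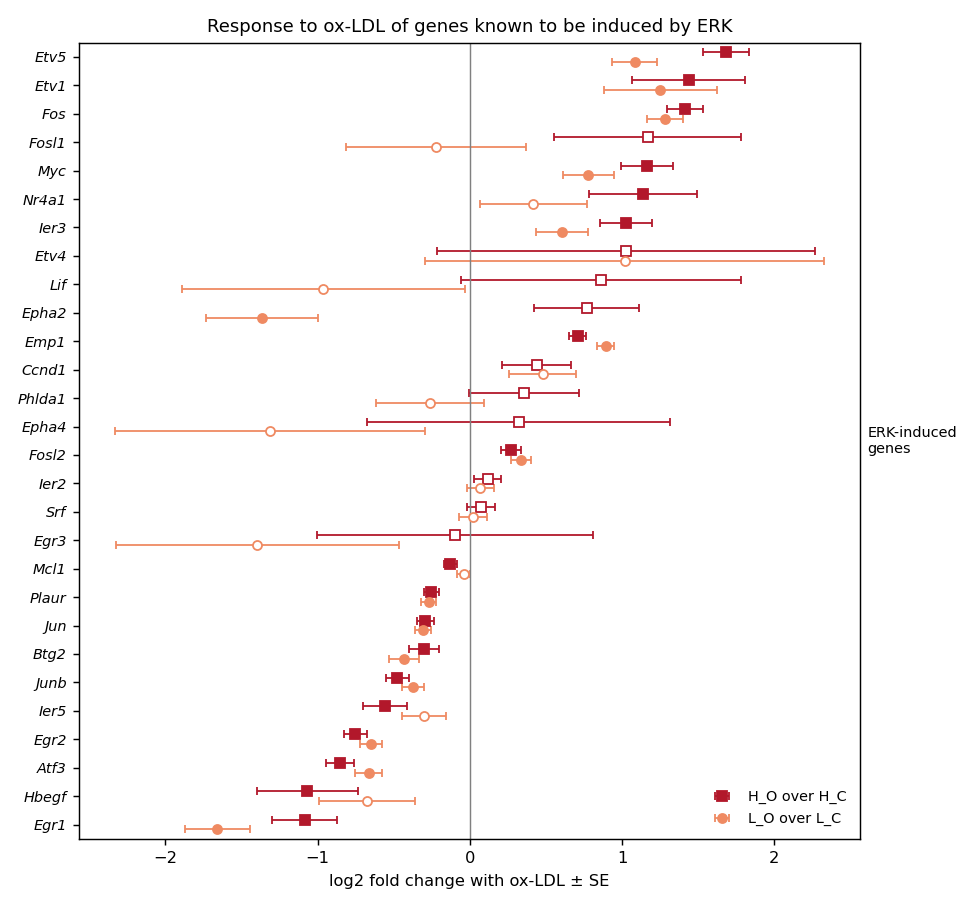
Ox-LDL log2 fold changes with standard errors (horizontal axis) of 28 genes known to be induced by ERK, ordered by the value in high glucose; squares are H_O over H_C, circles L_O over L_C, and filled symbols passed the test. Etv5 is at the top with 1.68 and 1.08, and Egr1 at the bottom with -1.08 and -1.66.

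Of 22 genes of the kinase cascade itself, 2 rose and 3 fell in high glucose and 2 rose and 4 fell in low glucose with ox-LDL, with medians of -0.01 and 0.01. These counts are near the shares of all entries, 10.4% higher and 11.5% lower in high glucose and 12.0% and 13.8% in low glucose. Rps6ka2, a kinase downstream of ERK, fell by 0.74 ± 0.070 in high and 0.67 ± 0.071 in low glucose (edgeR adjusted p = 2.66e-07 and 1.03e-06), and it rose by 0.54 ± 0.070 in H_C over L_C and 0.46 ± 0.071 in H_O over L_O (edgeR adjusted p = 8.04e-05 and 0.000603). In all, 2 of the 22 rose and 3 fell in H_C over L_C, and 2 rose and 1 fell in H_O over L_O. Of all entries 5.02% were higher and 7.75% lower in H_C over L_C, and 2.71% and 3.39% in H_O over L_O. These glucose shares also stand beside the glucose counts of the lists that follow.

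Of 22 regulators of Ras other than Spred proteins, 2 were higher and 7 lower in high glucose and 5 higher and 6 lower in low glucose with ox-LDL. The same shares of all entries, 10.4% higher and 11.5% lower in high glucose and 12.0% and 13.8% in low glucose, stand beside this count and those of the lists that follow. Grb2, the adaptor that brings the Ras exchange factor Sos to receptors, fell by 0.40 ± 0.037 and 0.47 ± 0.037 (edgeR adjusted p = 2.79e-07 and 3.08e-08). Rasa4, a GTPase-activating protein for Ras, fell by 0.60 ± 0.054 and 0.62 ± 0.054 (edgeR adjusted p = 1.25e-07 and 9e-08). Rasgrp4, an exchange factor, rose by 1.19 ± 0.12 in low glucose (edgeR adjusted p = 6.11e-07) and by 0.78 ± 0.12 in high glucose (edgeR adjusted p = 8.14e-05). Glucose comparisons gave 3 higher and 2 lower in H_C over L_C and 1 of each in H_O over L_O. The medians in the ox-LDL comparisons were -0.02 and -0.04 in high and low glucose.

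Upstream, of 27 growth factors and receptors tested, 4 rose and 12 fell with ox-LDL in high glucose and 4 rose and 13 fell in low glucose, with medians of -0.20 and -0.41. Csf2rb2 and Csf2rb, signalling chains of receptors for interleukin-3 and related cytokines, share much sequence, so their counts are uncertain. Csf2rb2 fell by 1.18 ± 0.068 and 1.47 ± 0.069, and Csf2rb by 0.72 ± 0.059 and 0.87 ± 0.060. Gas6, the ligand of the receptor kinases Axl, Mertk and Tyro3, went the other way, with 353, 327, 347 and 333 CPM in H_O, 260, 274, 291 and 269 in L_O, 108, 112, 105 and 110 in H_C and 61.2, 61.5, 60.9 and 70.5 in L_C. The 4 groups did not overlap, and the Gas6 log2 fold change with ox-LDL was 1.65 ± 0.052 in high and 2.11 ± 0.053 in low glucose (edgeR adjusted p = 1.83e-13 and 1.53e-14). Its response was smaller in high glucose by -0.46 ± 0.072 (edgeR interaction, adjusted p = 0.0381), the opposite sign to Dusp6, Dusp4 and Spred2. This call ended in 14 of 25 alternatives, among them limma-voom, the replicate block and the omission of 1 library at a time for 12 of the 16 (adjusted p up to 0.146). In the glucose comparisons 3 of the 27 rose and 9 fell in H_C over L_C, and 2 rose and 4 fell in H_O over L_O.

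Of 12 negative regulators of tyrosine kinase and cytokine receptors, 2 rose and 2 fell in high glucose and 2 rose and 4 fell in low glucose with ox-LDL (medians -0.16 and -0.26), counts too small to be set apart from the shares of all entries. Ptpn6, the phosphatase SHP-1, fell by 0.44 ± 0.067 and 0.83 ± 0.067, Cbl, a ubiquitin ligase for receptors, by 0.50 ± 0.039 and 0.39 ± 0.039, and Dok3, an adaptor that dampens Ras, rose by 0.41 ± 0.072 and 0.32 ± 0.072. Glucose gave 1 higher and 2 lower in H_C over L_C and 1 of each in H_O over L_O. In the parallel p38 and JNK cascades, the preferred targets of Dusp1, 3 of 18 rose and 2 fell in high glucose and 4 rose and 2 fell in low glucose (medians 0.07 and 0.00), with the same limit. Mapk14, which encodes p38 alpha, rose by 0.36 ± 0.042 and 0.45 ± 0.042 (edgeR adjusted p = 3.79e-06 and 2.66e-07), and 0 of the 18 rose and 2 fell in each glucose comparison.

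Dusp1 is also a classical target of the glucocorticoid receptor. A list of 11 genes held the receptor gene Nr3c1 and other targets. Of these 11, 2 rose and 5 fell with ox-LDL in high glucose and 3 rose and 4 fell in low glucose (medians -0.04 and -0.17). Nr3c1 was among those that fell in both, and these calls were lost in 6 and 8 of 26 alternatives. Klf9 fell by 0.99 ± 0.088 and 0.95 ± 0.090 and Sgk1 by 0.55 ± 0.052 and 0.64 ± 0.052, while Cebpd rose by 0.80 ± 0.12 and 0.79 ± 0.12. With high glucose 2 rose and 1 fell in H_C over L_C and 4 rose and 0 fell in H_O over L_O.

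Genes with the most like course over the 16 libraries were found as those with the smallest root mean square difference of log2 CPM after centring each gene on its own mean, among 8364 genes. For Dusp6 they were Clec4n, which encodes the fungal receptor dectin-2, at 0.37, Tgfbi, a secreted matrix protein, at 0.39 and Ednrb, an endothelin receptor, at 0.44, with Spred2 seventh and Dusp4 eighth. Clec4n averaged 67.7 ± 6.51 CPM in H_O, 52.2 ± 0.967 in L_O, 8.01 ± 0.415 in H_C and 8.67 ± 0.983 in L_C (SD, n = 4 each). For Dusp4 they were Cd36, a scavenger receptor for ox-LDL, at 0.23, Fos at 0.24 and Cpt1a, which carries fatty acids into mitochondria, at 0.27. For Spred2 they were the kinase gene Plk3 at 0.18, Cpt1a at 0.19 and Cd36 at 0.22. Dusp4 and Spred2 lay 0.29 from each other, and without L_C replicate 4 Spred2 became the nearest gene to Dusp4, at 0.21. Seen from Dusp4 and from Spred2, Dusp6 came only at rank 118 and rank 110. Dusp6, Dusp4 and Spred2 were chosen by their rise with ox-LDL, so nearness among them is in part given by that choice.

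Spred1 was nearest to Mcm2, a replication helicase subunit, at 0.090, Eno1, a glycolytic enzyme, at 0.096 and Tm6sf1 at 0.098. Dusp1 was nearest to Arhgap21, Rsrc1 and Cse1l, each at 0.12, of which Arhgap21 averaged 65.9 ± 2.15 CPM in H_O, 64.1 ± 5.52 in L_O, 59.2 ± 3.48 in H_C and 65.4 ± 10.9 in L_C (SD, n = 4 each). These 3 were replaced by Gprasp1, Dbr1 and Clcc1 without L_C replicate 4. The 3 nearest genes of Spred1 were likewise replaced, by Igf1, Plin2 and Mylip, whereas those of Dusp6 and Spred2 only changed order. The measure describes these libraries and carries no test.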

How the data were processed

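Per the labels, total RNA was extracted with Trizol and Illumina libraries were made; HISAT2, DESeq2 and the mouse build mm10 are named in the submitters' processing notes without roles or versions, and the counting tool, annotation and strand setting are not given in the sources used here. The authors deposited counts per gene, whole numbers with no normalization, in a single table for the 16 libraries. Groups and replicate numbers came from the labels.

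All 16 libraries entered a single edgeR 4.0.16 fit in R 4.3.3 (TMM, filterByExpr by group, a mean per group, quasi-likelihood F test, two-sided, 12 residual degrees of freedom), with p-values adjusted by the Benjamini-Hochberg method over the 13527 entries tested and a threshold of 0.05. CPM are counts scaled by library totals and TMM factors; log2 CPM used a prior count of 2. The fit was tested on simulated data. Exonic lengths joined the exons of all GENCODE isoforms of a gene on GRCm38, and promoter stretches came from RefSeq.

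The members, the 10 lists of related genes and the rule for named genes were chosen with earlier results of these data known. The rule named the 5 members, all tested members of the other classical MAP kinase phosphatases and the other Sprouty and Spred genes, up to 4 called genes per list and comparison by smallest adjusted p, and the 3 genes of most like pattern per member (average log2 CPM of at least 3). Values of a gene so named may be given for other comparisons too. Each value was recomputed with upper-quartile or RLE scaling, no scaling, 2 other low-count filters, DESeq2 1.42.0, limma-voom (limma 3.58.1), a replicate block, fits of the 8 libraries compared and leaving out each library. Some genes of the lists are not reported here by name.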

Additional observations from a re-analysis of the deposited data

Results flagged for a closer look

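Dusp6 in H_C replicate 3 measured 9.45 CPM, against 5.09, 5.55 and 5.66 CPM in the other H_C libraries. Its gap to the nearest of them was 0.87 of the group's range, above Dixon's critical value for 4 samples. Of the 20 groups of 4 screened over the 5 genes, 1 was marked in this way, and chance marks about 1 in 20.

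The ox-LDL response of Gas6 differed between the glucose levels, with a log2 fold change smaller in high than in low glucose by a difference of -0.46 ± 0.072 (SE; edgeR interaction, adjusted p = 0.0381). All 4 H_O libraries lay above all 4 H_C libraries, and all 4 L_O above all 4 L_C. The adjusted p lay between 4.35e-06 and 0.146 over 25 alternatives, of which 14 ended the call: limma-voom (0.0553), the replicate block (0.137) and leaving out any library other than L_O replicate 1, H_C replicate 3, L_C replicate 1 and L_C replicate 4 (0.0640 to 0.146). Ccr1, the other entry called, had a larger response in high glucose by 0.65 ± 0.10 (edgeR adjusted p = 0.0381).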

How the results depend on the processing

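The ox-LDL values of Dusp6, Dusp4, Spred1 and Spred2 stayed positive under all 26 alternatives in both comparisons. Dusp6 in H_C over L_C lost its call with upper-quartile scaling (-0.47), no scaling (-0.46), limma-voom (-0.50) and the 8 libraries alone (-0.49), and ranged between -0.73 and -0.39 without 1 library, where Dusp4 ranged between -0.47 and -0.15. Spred2 in H_C over L_C lost its call only with the 8 libraries alone (-0.45, edgeR adjusted p = 0.099). Spred1, near 0, turned sign in H_C over L_C with upper-quartile scaling (0.002) and no scaling (0.014) and in H_O over L_O with no scaling (0.003), and without 1 library ranged between -0.065 and 0.053 and between -0.029 and 0.011. Dusp6 in H_O over H_C ranged between 2.63 and 2.96 and its difference between glucose levels between 0.42 and 0.76. The cause was not tested.

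Leaving out L_C replicate 4 and H_C replicate 3 together, chosen after seeing the data, gave Dusp6 2.97 in H_O over H_C and a difference of 0.87, Dusp4 -0.48 in H_C over L_C (a call gained), 788 entries higher and 994 lower in H_O over L_O, and 44 and 10 for the difference. With 1 library left out, H_O over L_O gave 240 to 749 entries higher and 286 to 1014 lower, and the difference 0 to 41 and 0 to 12, most without L_C replicate 4. The 8 libraries alone gave 340 higher and 574 lower in H_C over L_C and 718 and 901 in H_O over L_O. No scaling gave 2857 higher in L_O over L_C and 2176 in H_O over H_C, with the median of all entries moved to 0.0858 and 0.0738. DESeq2 called 78 higher and 17 lower for the difference and limma-voom 0 and 0. For other named and listed genes, 372 of 5277 recomputed calls were lost and 0 reversed.

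Replicate numbers did not pair the libraries: deviations of the 24 same-numbered pairs correlated between -0.165 and 0.104 over 8672 genes, 2 of them over 0.1, and 3 of 16 libraries correlated best with their own number. A replicate block left 0 higher and 0 lower calls for the difference and kept the Dusp6 and Spred2 calls in H_C over L_C (-0.51 and -0.45, edgeR adjusted p = 0.0301 and 0.00439). Depth limits Spry1 and Spry4, which had few reads.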
